A study of Homo sapiens with 16 samples.

Results

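Syndecans and glypicans are the main heparan sulfate proteoglycans of the cell surface, and transcripts of 8 of them were followed in Hs578 and TT642 cells, of 20114 genes in the count table. The 8 genes are the syndecans SDC1, SDC2, SDC3 and SDC4 and the glypicans GPC1, GPC3, GPC4 and GPC6. They were chosen by name with their counts in all 16 libraries already in view, so their levels in the 2 lines are described without a test, and the adjusted p-values given for doxycycline, though taken over all genes tested, describe the members and are no independent evidence. GPC2 and GPC5, the remaining human glypicans, were read beside them. All 8 passed the filter on low counts, SDC2 and GPC3 through 1 line each.

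The study asked what follows when PRRX1, a homeobox transcription factor of mesenchymal cells, is lowered by a short hairpin RNA (shRNA) that doxycycline switches on. Each line was sequenced as parental cells with no shRNA and as cells with shPRRX1_1, shPRRX1_2 or shPRRX1_3, called hairpins 1, 2 and 3 here. The labels do not say whether a number stands for the same hairpin in both lines. Every one of these 4 forms was grown without doxycycline and with 3 µg/ml doxycycline, which gives 1 parental library and 3 hairpin libraries per treatment in each line. Hs578 is labelled as breast cancer cells. TT642 is labelled as rhabdoid tumor cells, while the design text places both lines in triple-negative breast cancer. The time of treatment was not recorded in the labels. The replicates of a hairpin group were read from their titles as 3 derived lines of 1 parent. Nothing says that they came from separate cultures, and the p-values then cover only variation among these libraries, which may be technical.

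A syndecan crosses the membrane once and ends in a short cytoplasmic tail that binds PDZ proteins and signalling kinases, whereas a glypican is held in the outer leaflet by a glycolipid anchor and has no tail. Both carry heparan sulfate, a sulfated sugar chain that holds growth factors, Wnt and Hedgehog proteins and matrix proteins at the cell surface. In connective tissue cells SDC2 and SDC4 are known for their part in adhesion to fibronectin, and among the glypicans GPC3 is known as an oncofetal surface protein, silent in most adult tissues.

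Total counts were 13461527 to 19139654 per library in Hs578 and 15265227 to 24672906 in TT642. PRRX1 was lower in all 6 induced hairpin libraries. It went from 291, 227 and 262 CPM (counts scaled to library size with TMM factors) to 37.1, 72.8 and 51.0 CPM for hairpins 1, 2 and 3 in Hs578, and from 1213, 1409 and 1301 to 265, 184 and 513 CPM in TT642. The log2 fold change was -2.28 in Hs578 (SE 0.37, edgeR adjusted p = 0.0022) and -2.03 in TT642 (SE 0.36, adjusted p = 0.17), where DESeq2 called it (adjusted p = 6.7e-05). Parental cells held 290 and 298 CPM in Hs578 and 1484 and 1533 CPM in TT642, without and with doxycycline. The T cell marker CD3E, the muscle markers MYOD1 and MYOG and the glial marker SOX10 had no count in any library. Other markers from the same blood, muscle and neural lists were counted. The neural marker TUBB3 was at 206 to 449.5 CPM in Hs578 and 95.7 to 138 CPM in TT642. CD68, from the blood list, was at 43.2 to 105 CPM in Hs578 and 12.2 to 17.2 CPM in TT642. The muscle marker DES reached 0.99 CPM in Hs578 and 5.2 CPM in TT642. The summed level of 9 epithelial markers was 246 to 441 CPM in Hs578, nearly all of it from the keratins KRT18 (185 to 401 CPM) and KRT8 (27.7 to 56.4 CPM), and 1.59 to 5.45 CPM in TT642, while EPCAM and CDH1 stayed at or below 0.37 CPM in both lines. The summed level of 9 mesenchymal markers was 20200 to 39430 CPM in Hs578 and 10560 to 12100 CPM in TT642. In TT642 most of it was VIM (9915 to 11010 CPM, against 4081 to 5874 CPM in Hs578), and FN1, COL1A2, PDGFRB and TWIST1 were each at or below 3.96 CPM there. The rest of the list was present in TT642, with COL1A1 at 88.1 to 1129 CPM and CDH2 at 73.7 to 499.5 CPM. ZEB1 was at 13.7 to 35.1 CPM and THY1 at 4.32 to 26.9 CPM there. ESR1 was at most 0.61 CPM in either line, and ERBB2 was at 69.9 to 78.8 CPM in Hs578 and 110 to 173 CPM in TT642. SMARCB1, the gene whose loss defines most rhabdoid tumours, was at 28.8 to 41.6 CPM in TT642 and 87.7 to 125 CPM in Hs578, so its transcript was present in the cells labelled rhabdoid.

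The 2 lines carried different sets of proteoglycan transcripts, with syndecans leading in Hs578 and glypicans in TT642. Levels between genes are compared as FPKM, the authors' values per length of transcript. The glypican sums given here include GPC2 and GPC5 beside the listed glypicans. Syndecans made up 87.9% to 91.9% of the summed FPKM of both families in the 8 Hs578 libraries (median 89.6%). In the 8 TT642 libraries they made up 22.3% to 37.6% (median 33.3%). In Hs578 the summed syndecan level was 241 to 312 FPKM and the summed glypican level 24.9 to 37.4 FPKM. In TT642 the syndecans summed to 43.4 to 58.8 FPKM and the glypicans to 91.1 to 173 FPKM. The ranges of the 2 lines did not overlap for either sum. Each line is a single line, so this describes these lines and not their tumour types.

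SDC2, the syndecan of mesenchymal cells, was the highest member in Hs578 and all but absent in TT642. Its lowest, median and highest levels over the 8 Hs578 libraries were 127, 156 and 192 FPKM. In TT642 it had 9 counts in all 8 libraries together and none in 3 of them. In the uninduced hairpin libraries, 10853 counts in Hs578 stood against 2 in TT642, a ratio of 5981 after scaling (95% exact binomial interval 1655 to 49390, which covers counting error only).

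SDC4, the widely expressed syndecan of focal adhesions, followed the same split. It ran at 46.2, 64.3 and 71.9 FPKM (lowest, median and highest) in Hs578 and at 0.039, 0.068 and 0.34 FPKM in TT642. The uninduced hairpin libraries held 10764 counts in Hs578 and 6 in TT642, a ratio of 1977 (interval 908 to 5389). The other syndecans were present in both lines. SDC1, the main syndecan of epithelia and plasma cells, was at 25.1 to 38.3 FPKM in Hs578 and at 13.7 to 23.2 FPKM in TT642, without overlap, and its pooled uninduced counts were 1.96 times higher in Hs578 (interval 1.88 to 2.04). SDC3, the syndecan first known from nerve and muscle, was at 13.4 to 24.4 FPKM in Hs578 and 23.7 to 44.3 FPKM in TT642, so that the ranges overlapped slightly, and its pooled counts were 1.44 times higher in TT642 (1.40 to 1.49).

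**Figure D1:**
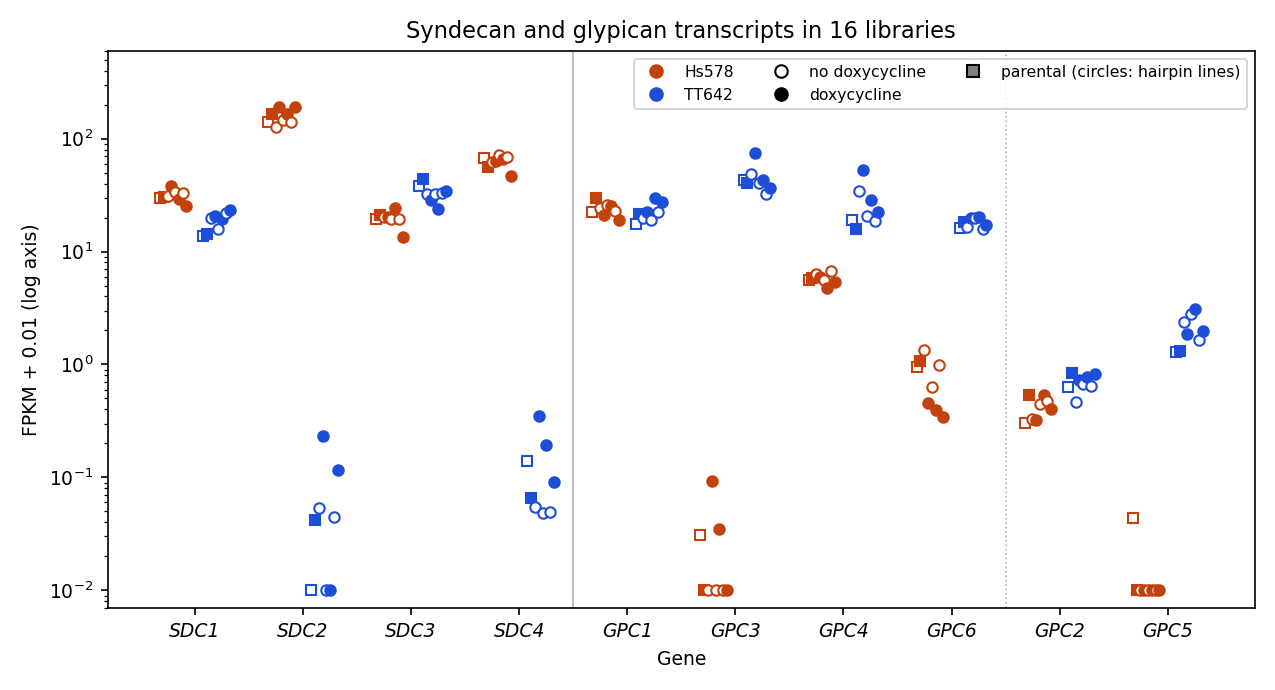
FPKM of each gene in all 16 libraries, plotted as FPKM + 0.01 on a log axis, with 1 point per library, orange for Hs578 and blue for TT642, open without and filled with doxycycline, squares for parental cells. SDC2 and SDC4 sit at 46.2 FPKM or more in Hs578 and at 0.34 FPKM or less in TT642, while GPC3 sits at 32.0 FPKM or more in TT642 and at 0.082 FPKM or less in Hs578.

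GPC3, an X-linked glypican that restrains Hedgehog signalling in development, was the mirror image of SDC2. It was the member with the highest median in TT642, at 32.0, 41.6 and 75.3 FPKM (lowest, median and highest). In Hs578 it had 3 counts over 8 libraries and none in 5 of them. The 3 uninduced hairpin libraries of TT642 held 4686 counts and those of Hs578 none. With a floor of 3 counts over the group, which allows up to 0.059 CPM, GPC3 was at least 1417-fold higher in TT642.

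GPC6, a glypican of skeletal growth, was at 15.9, 17.6 and 20.1 FPKM in TT642 and at 0.33, 0.78 and 1.33 FPKM in Hs578. Its pooled uninduced counts were 15.9 times higher in TT642 (interval 14.4 to 17.6). GPC4, a glypican linked to Wnt signalling, was at 15.7, 21.4 and 52.9 FPKM in TT642 and at 4.73, 5.68 and 6.67 FPKM in Hs578, with pooled counts 3.58 times higher in TT642 (3.36 to 3.81). GPC1, the most widely expressed glypican, was the member closest to equal. It ran at 17.7 to 30.1 FPKM in TT642 and 18.9 to 30.1 FPKM in Hs578, and its pooled counts were 1.37 times higher in Hs578 (1.31 to 1.43). The ranges of GPC1 in FPKM overlapped almost wholly, and in CPM they overlapped too, at 47.2 to 83.0 in TT642 and 69.3 to 110 in Hs578.

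In order of median FPKM, Hs578 ran SDC2, SDC4, SDC1, GPC1, SDC3, GPC4, GPC6 and GPC3. SDC1 overlapped GPC1 and GPC1 overlapped SDC3 over the 8 libraries, and the other neighbours did not overlap. In TT642 the order was GPC3, SDC3, GPC1, GPC4, SDC1, GPC6, SDC4 and SDC2. Neighbours among the first 6 overlapped, so that adjacent places in this order do not differ beyond the spread. GPC3 and SDC3 still lay above all SDC1 and GPC6 libraries, and GPC3 above all GPC1 libraries. SDC4 overlapped SDC2 near 0. GPC5 stood between these sets in TT642 at 1.29 to 3.09 FPKM. In Hs578 it had 2 counts, both in the parental library without doxycycline. GPC2 was low in both lines, at 0.29 to 0.53 FPKM in Hs578 and 0.46 to 0.84 FPKM in TT642.

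The genome groups some of these genes. GPC4 and GPC3 are next to each other on chromosome X, and GPC5 and GPC6 on chromosome 13, with no protein-coding gene between them in RefSeq (GRCh38.p14). All 4 were higher in TT642. SDC1 and GPC1 lie on chromosome 2, SDC3 on 1, SDC4 on 20 and SDC2 on 8. In GENCODE 29, 5 genes on the opposite strand overlap GPC6, 5 overlap GPC5, 2 overlap GPC3 and 1 overlaps GPC1. The library kit marks strand, but no source used here says whether counting used it, and without strand the reads of these genes and of the glypican cannot be told apart.

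Promoter sequences are shown for GPC6, whose window holds fewer CpG than the median promoter, and for SDC4 and GPC4, 1 CpG-rich window from each family. By edgeR, GPC6 and SDC4 both differed between the lines in their response to doxycycline, SDC4 on few counts in TT642. A link between CpG content and this response was not tested. RefSeq entries (GRCh38.p14) from 250 bases before to 50 bases after the start were found for 6 of the 8 members. They are written 5′ to 3′ on the gene's strand, with every CpG in capitals. GPC6 is chr13:93226557-93226856 on the plus strand, SDC4 is chr20:45348375-45348674 on the minus strand, and GPC4 is chrX:133415440-133415739 on the minus strand.
GPC6: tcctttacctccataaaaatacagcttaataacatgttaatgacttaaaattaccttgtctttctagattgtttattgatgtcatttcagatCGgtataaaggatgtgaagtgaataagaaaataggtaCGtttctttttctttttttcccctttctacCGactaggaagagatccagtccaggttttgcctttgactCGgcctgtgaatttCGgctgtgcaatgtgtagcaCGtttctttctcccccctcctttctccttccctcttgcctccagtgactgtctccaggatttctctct
SDC4: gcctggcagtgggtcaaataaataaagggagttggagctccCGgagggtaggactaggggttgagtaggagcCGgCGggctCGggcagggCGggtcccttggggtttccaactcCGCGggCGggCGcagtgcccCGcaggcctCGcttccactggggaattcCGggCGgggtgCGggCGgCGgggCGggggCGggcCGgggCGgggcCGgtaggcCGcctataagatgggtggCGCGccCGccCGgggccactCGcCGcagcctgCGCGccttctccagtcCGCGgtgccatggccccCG
GPC4: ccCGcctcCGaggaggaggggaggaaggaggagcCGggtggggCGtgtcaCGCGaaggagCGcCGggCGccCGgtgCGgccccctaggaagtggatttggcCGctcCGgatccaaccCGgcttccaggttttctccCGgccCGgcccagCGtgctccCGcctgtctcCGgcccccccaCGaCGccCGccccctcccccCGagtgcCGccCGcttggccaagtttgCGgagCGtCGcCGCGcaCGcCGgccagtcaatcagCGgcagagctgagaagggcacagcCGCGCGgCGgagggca
The GPC6 window held 6 CpG at 40.0% GC and 1 TATAAA, and 33.7% of all promoters held fewer CpG. The SDC4 window held 33 CpG at 74.0% GC with 8 GGGCGG, and the GPC4 window 37 CpG at 74.7% GC with 2 GGGCGG. SDC3 and GPC1 held 46 and 45 CpG, and the 2 entries of SDC1 held 27 and 23. The median over 35116 promoters of this length was 14 CpG and 58.7% GC. Motifs were searched on both strands. The TATA box letters TATAAA were in 11.5% of all promoters, and the GC box letters GGGCGG in 45%. The letters TAATTA, the core that many homeodomains bind, were in 4.8% of promoters, and the AP-1 letters TGACTCA in 4.9%. Neither of the latter motifs was in a member's window, which says only that these letters are not there.

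In Hs578 the hairpin lines were compared with and without doxycycline, to see which members moved when PRRX1 was lowered. SDC2 rose and GPC6 fell, and the other 6 members did not pass the test. By edgeR's quasi-likelihood test with Benjamini-Hochberg adjustment over 14035 genes, 2 of 8 members were called at an adjusted p under 0.05, against 29.3% of all genes (15.2% higher and 14.1% lower). The members' share is thus close to the background. The genome-wide split of 2139 higher and 1979 lower became 1352 and 3112 with limma on log2(FPKM + 1), and 1276 and 2903 on log2(FPKM + 0.1).

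GPC6 went from 11.3, 5.18 and 7.89 CPM to 3.74, 3.38 and 3.02 CPM for hairpins 1, 2 and 3. The 3 induced libraries lay below all 3 uninduced ones, and hairpin 2 began lowest and fell least. The group means were 8.13 ± 3.08 and 3.38 ± 0.36 CPM (SD, n = 3), and 417 counts stood against 147. Parental cells went the other way, from 7.63 to 9.18 CPM. The fitted log2 fold change was -1.27 (SE 0.25, edgeR adjusted p = 0.0031). Without hairpin 3 it was -1.22 and missed the threshold (adjusted p = 0.085), and with limma on log2(FPKM + 1) it was -0.49 (adjusted p = 0.016). Across the alternatives the adjusted p ran from 4.7e-07 to 0.085.

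SDC2 went from 209, 217 and 213 CPM to 316, 297 and 382 CPM. The uninduced libraries lay close together, and all 3 induced ones were above them. The means were 213 ± 3.93 and 332 ± 44.4 CPM (SD, n = 3), a log2 fold change of 0.64 (SE 0.12, edgeR adjusted p = 0.0020). Parental cells also held more with doxycycline, 282 against 224 CPM. That induced parental library lay above every uninduced library and below every induced hairpin library. The call was lost without hairpin 3 (0.52, adjusted p = 0.074) and by limma on log2(FPKM + 0.1) (0.39, adjusted p = 0.36).

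**Figure D2:**
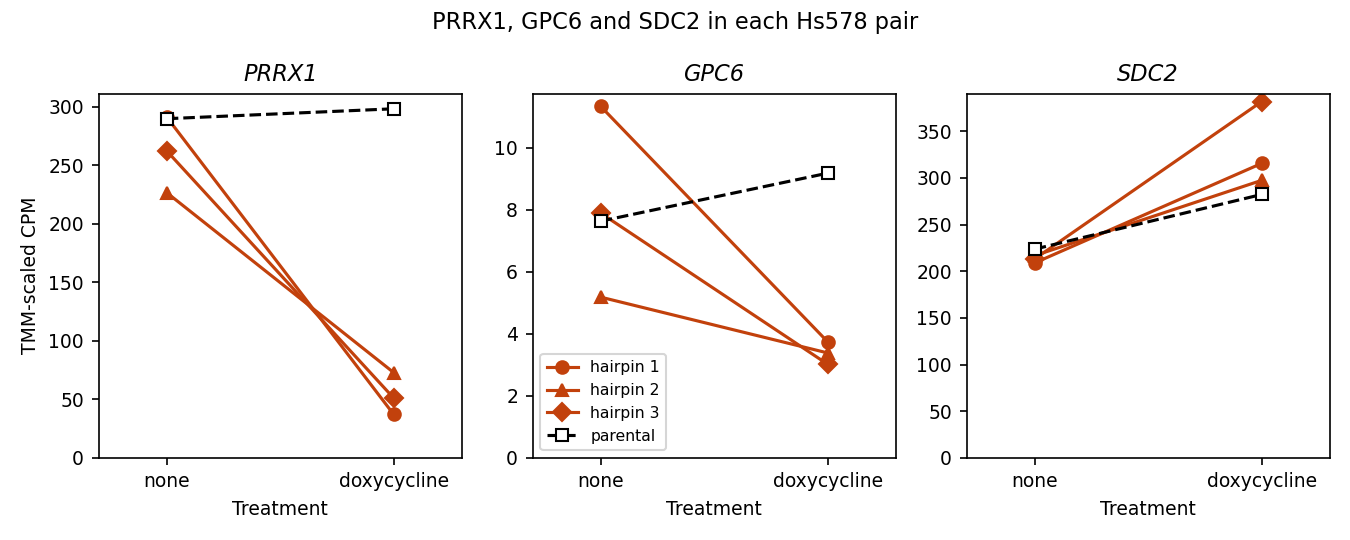
TMM-scaled CPM of PRRX1, GPC6 and SDC2 without and with doxycycline in Hs578, with 1 line per pair of libraries, solid for hairpins 1 to 3 and dashed for parental cells. GPC6 ends at 3.02 to 3.74 CPM in the 3 hairpin lines and at 9.18 CPM in parental cells, while SDC2 ends higher in all 4 pairs.

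The remaining syndecans of Hs578 moved by less than the spread between hairpins. SDC1 was at 123, 116 and 123 CPM without and 149, 123 and 110 CPM with doxycycline (0.08, SE 0.12, adjusted p = 0.68). SDC3 was at 155, 148 and 148 CPM without and 162, 210 and 121 CPM with it (0.13, SE 0.17, adjusted p = 0.61). SDC4 was at 197, 228 and 210 CPM without and 200, 222 and 166 CPM with it (-0.11, SE 0.12, adjusted p = 0.51). For none of these 3 genes did the hairpins all move in 1 direction, and hairpin 3 was the lowest induced library of all these 3 syndecans.

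GPC1 was at 74.8, 79.9 and 77.5 CPM without and 81.1, 95.9 and 81.6 CPM with doxycycline, a small excess in every hairpin that did not pass (0.15, SE 0.12, edgeR adjusted p = 0.36). Parental cells showed a larger one, from 69.3 to 110 CPM. GPC4 was at 25.8, 21.3 and 26.0 CPM without and 26.3, 25.3 and 24.5 CPM with it (0.06, SE 0.34, adjusted p = 0.93). GPC3 had no count in the uninduced hairpin libraries and 1, 1 and 0 counts in the induced ones, which allows no fold. On the FPKM scale the signs of SDC1, SDC3, GPC1 and GPC4 turned negative, all still short of the threshold.

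Other measures moved with doxycycline in Hs578 too. Mitochondrial transcripts took 2.16% to 2.79% of counts in uninduced and 3.18% to 5.44% in induced hairpin libraries, and 2.73% and 4.16% in the parental pair. The summed level of 9 mesenchymal markers, all detected, was 20360 to 22640 CPM in uninduced and 28510 to 39370 CPM in induced hairpin libraries, and 20200 and 39430 CPM in the parental pair. The summed level of 5 neural markers, with SOX10 at 0, was 239 to 247 CPM in uninduced and 317 to 460 CPM in induced hairpin libraries, and 237 and 226 CPM in the parental pair. The summed level of 5 basal breast markers was 256 to 294 CPM and 172 to 187 CPM, and 318 and 209 CPM in the parental pair, with KRT17 at 0 in every uninduced library. Most of the basal sum was EGFR (148 to 311 CPM over the 8 Hs578 libraries). KRT14 was at 5.99 to 32.2 CPM, and KRT5, KRT17 and TP63 were at 2.16 CPM or less. The part of these measures in the results for SDC2 and GPC6 was not tested, and in bulk RNA fewer cells of a type and less RNA per cell cannot be told apart.

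To set the hairpin effect against doxycycline itself, the change in the parental pair was subtracted. Against 57 genes, or 0.406% of all (0.292% higher and 0.114% lower), edgeR called none of the 8 members in Hs578, although 2 had an unadjusted p under 0.05 (GPC6 and GPC1) and DESeq2 called GPC6. The net change of GPC6 was -1.54 (SE 0.45, edgeR adjusted p = 0.15), larger than the change without subtraction. It passed the threshold by DESeq2 (-1.58, adjusted p = 0.018), with the derived line as a block (-1.53, adjusted p = 0.036), without hairpin 2 (-1.80, adjusted p = 0.047) and without the uninduced hairpin 2 library (-1.78, adjusted p = 0.045), and over all alternatives its adjusted p ran from 0.018 to 0.47. With limma on log2(FPKM + 1) its size was -0.57 (adjusted p = 0.39). The net change of SDC2 was 0.30 (SE 0.24, adjusted p = 0.62) and that of GPC1 -0.52 (SE 0.24, adjusted p = 0.34). The parental cells were a single pair of libraries, assumed to vary like the hairpin groups, and PRRX1 itself missed the threshold in this comparison (-2.32, SE 0.71, adjusted p = 0.18). The genome-wide split of 41 higher and 16 lower became 162 and 134 by DESeq2, 27 and 30 with limma on log2(FPKM + 1), and 86 and 54 with the block.

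In TT642, edgeR called none of the 8 members with doxycycline, against 0.0285% of all genes (0.0143% higher and 0.0143% lower). GPC1 and SDC4 had an unadjusted p under 0.05, and DESeq2 called none of the 8. With the derived line as a block, GPC4 was called (0.47, edgeR adjusted p = 0.041). GPC4 was at 123, 78.9 and 62.1 CPM without and 189, 103 and 81.8 CPM with doxycycline, higher in all 3 pairs although the 2 groups overlap, and at 71.8 and 63.2 CPM in parental cells (0.50, SE 0.31, adjusted p = 0.77). Hairpin 1 was the highest library in both groups. The net change of GPC4 against the parental pair was 0.68 (SE 0.62, edgeR adjusted p = 1). Net of the parental pair edgeR called none of the 8 members of TT642, against 0% of genes. SDC4 alone had an unadjusted p under 0.05 there, and DESeq2 called none.

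GPC3, its neighbour on chromosome X, was at 100, 83.4 and 66.8 CPM without and 145, 88.5 and 73.9 CPM with doxycycline, and at 83.9 and 82.6 CPM in parental cells (0.29, SE 0.25, edgeR adjusted p = 0.85). Hairpin 1 again held the highest library of each group. GPC1 was at 56.2, 50.6 and 63.7 CPM without and 60.0, 83.0 and 78.6 CPM with doxycycline (0.38, SE 0.12, adjusted p = 0.38), and parental cells went from 47.2 to 60.9 CPM. GPC6, which fell in Hs578, was at 123, 147 and 117 CPM without and 144, 149 and 129 CPM with doxycycline (0.12, SE 0.17, adjusted p = 0.94), and at 122 and 133 CPM in parental cells. GPC5 was at 4.47 to 10.4 CPM over the 8 libraries.

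SDC1 was at 68.7, 51.7 and 66.5 CPM without and 65.8, 59.1 and 73.4 CPM with doxycycline (0.09, SE 0.12, edgeR adjusted p = 0.94). SDC3 was at 216, 218 and 217 CPM without and 189, 160 and 233 CPM with it (-0.16, SE 0.17, adjusted p = 0.89). The uninduced SDC3 values were nearly equal, and the induced ones lay on both sides of them. SDC4 had 2, 2 and 2 counts without and 10, 12 and 6 counts with doxycycline, and 8 and 3 counts in parental cells without and with it (1.97, SE 0.54, adjusted p = 0.28). At this depth these counts are near the limit of detection. SDC2 had 1, 0 and 1 counts without and 3, 0 and 2 with doxycycline, too few for a fold.

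**Figure D3:**
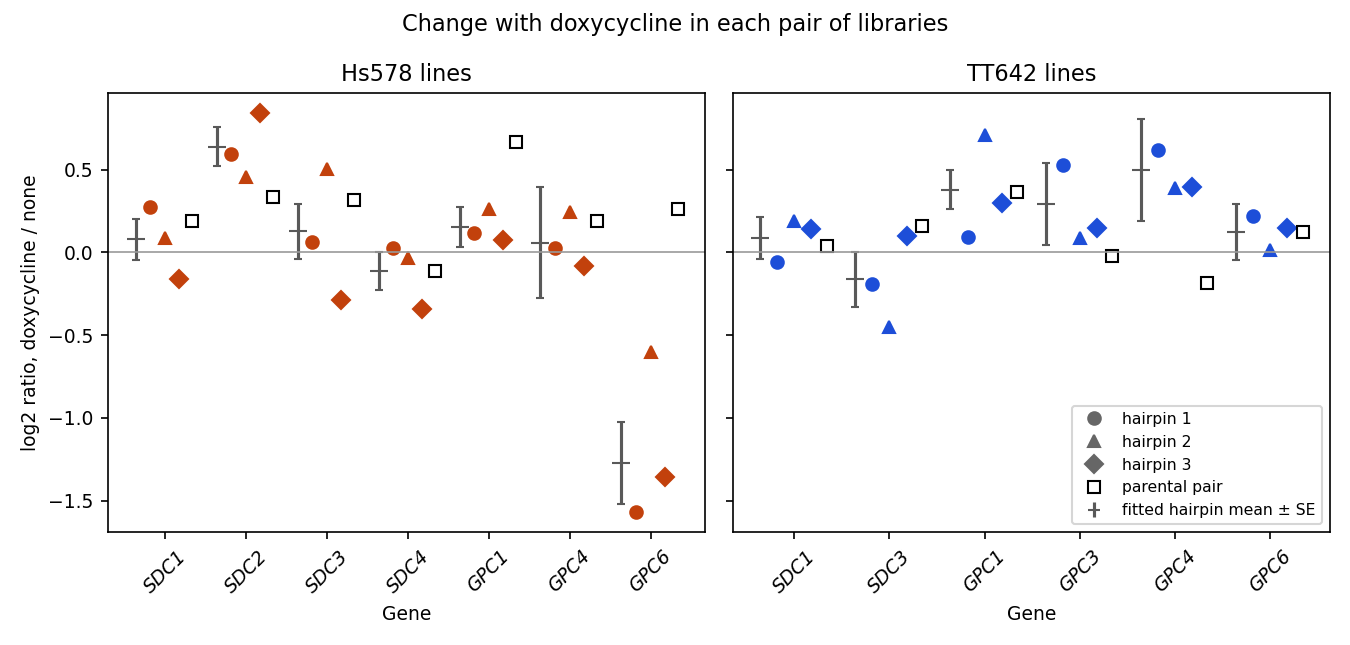
Log2 ratio of doxycycline to none in each pair of libraries, with 1 symbol per hairpin, open squares for the parental pair, and grey bars for the fitted mean of the hairpin lines ± SE, for members with enough counts in that line. In Hs578 the 3 hairpins put SDC2 above 0 and GPC6 below 0, and in TT642 GPC1, GPC3, GPC4 and GPC6 lie above 0 in all 3 hairpins. None of these was called in TT642 by edgeR with 1 mean per group, and GPC4 was called with the derived line as a block. The TT642 parental squares lie above 0 for GPC1 and GPC6 and below 0 for GPC3 and GPC4.

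The doxycycline effect in Hs578 hairpin lines was then tested against that in TT642. Of the 8 members 2 differed by edgeR, against 5.24% of all genes (2.76% higher in Hs578 and 2.48% lower). The split of 387 higher and 348 lower became 329 and 789 with limma on log2(FPKM + 1), and 253 and 534 on log2(FPKM + 0.1). For GPC6 the effect was lower in Hs578 by 1.40 on the log2 scale (difference -1.40, SE 0.30, adjusted p = 0.030). Its call was lost in 10 of 22 alternatives, and leaving out hairpin 3 of both lines gave -1.33 with an adjusted p of 0.37. With limma on log2(FPKM + 1) it was -0.61 (adjusted p = 0.067). For SDC4 the difference was -2.08 (SE 0.55, adjusted p = 0.046). It rests on the few TT642 counts given above, its size was -0.42 on the FPKM + 1 scale (limma adjusted p = 0.17), and its call was lost in 16 of 22 alternatives, with each hairpin left out among them. GPC4 gave -0.44 (SE 0.46, adjusted p = 0.60), a difference that did not pass. Without doxycycline, edgeR called none of the 8 members between hairpin lines and parental cells in either line, against 0% of genes in Hs578 (no member under an unadjusted p of 0.05) and 0.919% in TT642, 0.157% higher and 0.762% lower (1 member, SDC4, under it). DESeq2 called none in either line.

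The genes that make, trim and use heparan sulfate were read from 10 lists that hold 124 genes, all in the count table, of which 113 were tested. In Hs578, doxycycline in the hairpin lines was followed by 19 higher and 22 lower genes, or 36.3% of those tested against 29.3% of all genes. The parental pair, which carries no shRNA, had the same sign for 18 of the 19 and 20 of the 22, while over all called genes it did so for 81% of the higher and 85.6% of the lower. Some of these parental ratios were near 0, as for B3GALT6 (0.0062 against 0.50 in the hairpin lines) and EXT1 (-0.013 against -0.24). No list gene was called net of the parental pair by edgeR (10 had an unadjusted p under 0.05, and DESeq2 called BMP2, ITGB1 and MMP14). In TT642 edgeR called 0 of 113 (15 had an unadjusted p under 0.05, and DESeq2 called ITGA5).

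Among the other proteoglycans of Hs578, 3 rose and 2 fell of 9 tested, while over all genes 15.2% were called higher and 14.1% lower. The 3 that rose were the basement membrane proteoglycans, with COL18A1 from 261 ± 4.57 to 422 ± 26.7 CPM (SD, n = 3), a change of 0.69 on the log2 scale, with AGRN from 271 ± 0.91 to 390 ± 44.6 CPM (0.53) and HSPG2 from 94.3 ± 15.7 to 149 ± 23.3 CPM (0.66). The parental pair had larger log2 ratios for all 3, at 1.15 for COL18A1, 1.03 for AGRN and 1.07 for HSPG2, and none was called net of it. HSPG2 lost its call without hairpin 3 (0.56, adjusted p = 0.11) and with limma on log2(FPKM + 1) (0.12, adjusted p = 0.62). TGFBR3, the betaglycan that presents TGF-beta, fell from 28.96 ± 2.63 to 14.6 ± 1.66 CPM (-0.99), and NRP1, a co-receptor for VEGF, fell by 0.41 on the log2 scale.

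Enzymes of the short sugar linker that joins the chain to the protein rose in 4 of 7 tested, with a list median of 0.44 against 0 over all genes. Ahead were B3GAT3 (0.63), which adds the closing glucuronic acid, and B3GALT6 (0.50) and B4GALT7 (0.49), which add its galactoses. XYLT2 (0.44) was the other one called. The parental pair had ratios of 0.62 for B3GAT3, 0.0062 for B3GALT6, 0.70 for B4GALT7 and 0.66 for XYLT2. Net of that pair the list median was -0.18. Over all genes 15.2% were called higher and 14.1% lower in the hairpin lines. Of 5 chain polymerases 1 was called, EXT1, with a fall of 0.24 that was lost in 6 of 17 alternatives. Among 12 modifying enzymes 4 fell and none rose, with the 3-O-sulfotransferases HS3ST3B1 (-0.66) and HS3ST3A1 (-0.47) and the epimerase GLCE (-0.48) in front. Their parental ratios were -0.061, -0.54 and -0.16, and the list median net of the parental pair was -0.039. Of 7 genes that supply sugar and sulfate donors 2 fell, UGDH (-0.37) and the sulfate transporter SLC26A2 (-0.35).

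Of 11 genes that edit or release the chains, NOTUM, which cuts glypican anchors and Wnt lipids, rose (1.15), as did the membrane protease MMP14 (0.40), and the sheddase ADAM10 fell (-0.46). The parental pair rose more than the hairpin lines for NOTUM and MMP14, so that their changes net of it were -0.40 and -0.76. For ADAM10 the net change was -0.34. NOTUM was low, at 1.35 and 3.05 CPM, and its change was 0.77 without the induced hairpin 2 library (adjusted p = 0.085). The competing chondroitin sulfate chain had 2 genes up and 3 down of 13, with CHPF (0.79), CHST12 (0.51), CSGALNACT2 (-0.58), UST (-0.48) and CHST3 (-0.40). Of 12 cytoplasmic and membrane partners, the syndecan-binding adaptor SDCBP (syntenin, -0.35) and its exosome partner PDCD6IP (-0.20) fell, and the PDZ protein GIPC1 rose (0.35). Beside these counts, 15.2% of all genes were called higher and 14.1% lower. Net of the parental pair the list medians were -0.40 for editing and release, -0.23 for the chondroitin sulfate chain and -0.033 for partners.

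Of 20 ligands tested, 5 rose and 2 fell. TNC, a matrix protein of remodelling tissue, rose from 25.6 ± 2.19 to 94.9 ± 31.0 CPM (1.89), the growth factor MDK rose by 0.78 and WNT5B by 0.54. FGF5 fell from 181 ± 30.9 to 77.4 ± 6.09 CPM (-1.22) and VEGFA from 756 ± 49.2 to 439 ± 99.9 CPM (-0.78). Of 17 receptors 2 rose, FGFR3 (0.81) and ITGA5 (0.46), and 5 fell, with PDGFRA (-1.21), ITGB3 (-0.91) and EGFR (-0.71) in front. Over all genes 15.2% were called higher and 14.1% lower. Net of the parental pair the list medians were -0.14 for ligands and -0.23 for receptors. No gene of either list was called net of that pair by edgeR, while DESeq2 called BMP2 and ITGB1. Named by rule for doxycycline in the Hs578 hairpin lines, without subtraction, were 35 list genes. Of these, the calls of COL18A1, AGRN, TGFBR3, B3GAT3, TNC, MDK, FGF5 and ITGB3 held in all alternatives. Those of the other 27 were lost in at least 1. Without hairpin 3, 24 of the 35 were lost, without hairpin 1, 12, and without hairpin 2, 10.

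**Figure D4:**
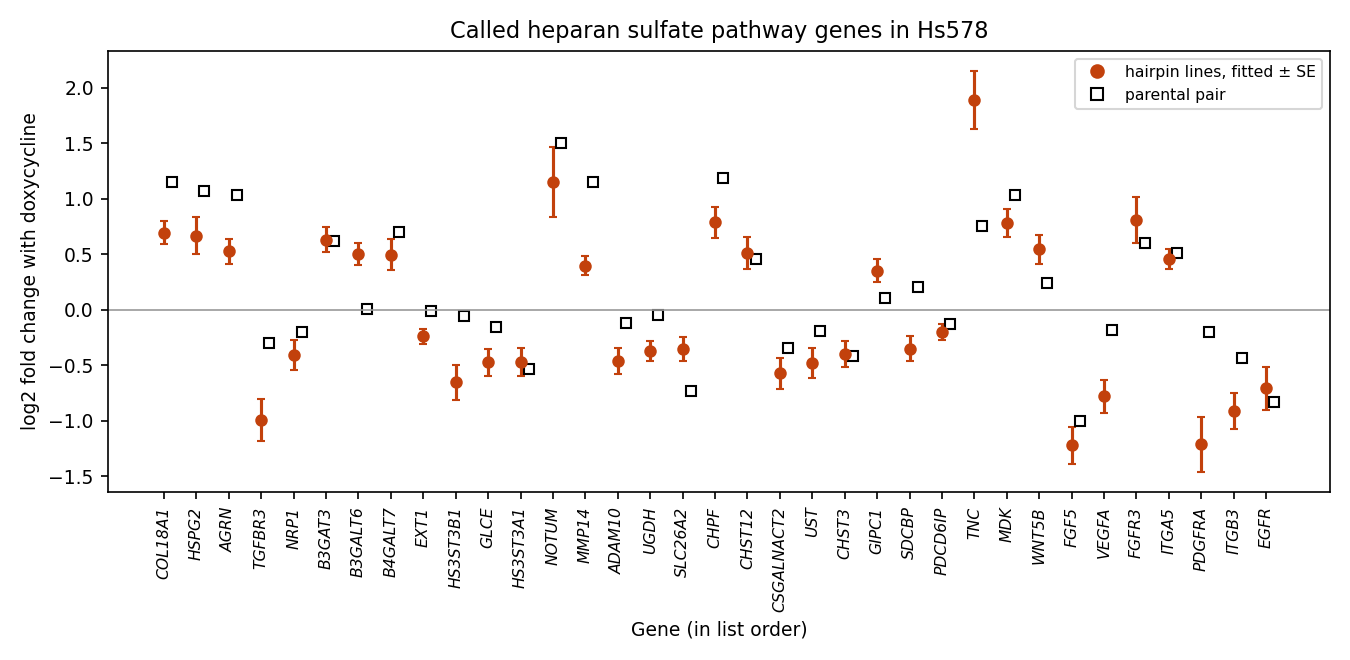
Log2 fold change with doxycycline in Hs578 of the 35 list genes named by rule, in list order, with filled circles for the fitted mean of the hairpin lines ± SE and open squares for the parental pair. TNC stands highest at 1.89 and FGF5 lowest at -1.22, and most parental squares lie on the same side of 0 as the circles.

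Between the lines, by uninduced hairpin libraries, 24 list genes were higher in TT642 and 73 in Hs578 of 113 tested, or 85.8% against 80.8% of all genes (39.7% higher and 41% lower in TT642). Of the 50 list genes named by rule, 49 kept their call in each alternative that gave a value, and NOTUM lost it in 4 of 16. FGFR2 had no value without hairpin 2. Of 7 linker enzymes tested 4 were higher in Hs578 and none in TT642, of 5 polymerases 4 were higher in Hs578 and 1, EXTL1, in TT642, and of 12 modifying enzymes 7 were higher in Hs578 and 3 in TT642. EXT1 and EXT2, the subunits of the main polymerase, were at 550 ± 15.2 and 455 ± 9.59 CPM in Hs578 and at 28.8 ± 0.71 and 67.6 ± 6.09 CPM in TT642 (SD, n = 3; log2 difference -4.26 and -2.75). XYLT1, which starts the chain, was at 73.8 ± 4.67 against 3.55 ± 1.20 CPM, and UGDH, which makes its glucuronic acid donor, at 305 ± 30.2 against 137 ± 9.52 CPM.

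The 2 sulfatases that edit heparan sulfate outside the cell split by line. SULF1 was at 765 ± 174 CPM in Hs578 and 6.14 ± 8.51 in TT642, and SULF2 at 1.88 ± 0.97 in Hs578 and 16.3 ± 3.21 in TT642. HS6ST2, a 6-O-sulfotransferase, was at 1.06 ± 0.14 and 15.9 ± 5.56 CPM. Of the remaining proteoglycans, CD44 (4020 ± 128 against 362 ± 127 CPM) and NRP1 (633 ± 54.1 against 0.45 ± 0.21) were higher in Hs578, and HSPG2, or perlecan, was higher in TT642 (94.3 ± 15.7 against 397 ± 82.0).

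Ligands split as well. FN1, fibronectin, was at 10850 ± 1027 CPM in Hs578 and 0.76 ± 0.50 in TT642, and WNT5A at 286 ± 38.9 and 0.019 ± 0.032 CPM. HGF was at 0.16 ± 0.15 in Hs578 and 991 ± 72.9 in TT642, FGF18 and PDGFB were also higher in TT642 (5.21 and 5.58 on the log2 scale), and so was PTCH1, the Hedgehog receptor, at 0.28 ± 0.04 and 21.0 ± 0.85 CPM.

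**Figure D5:**
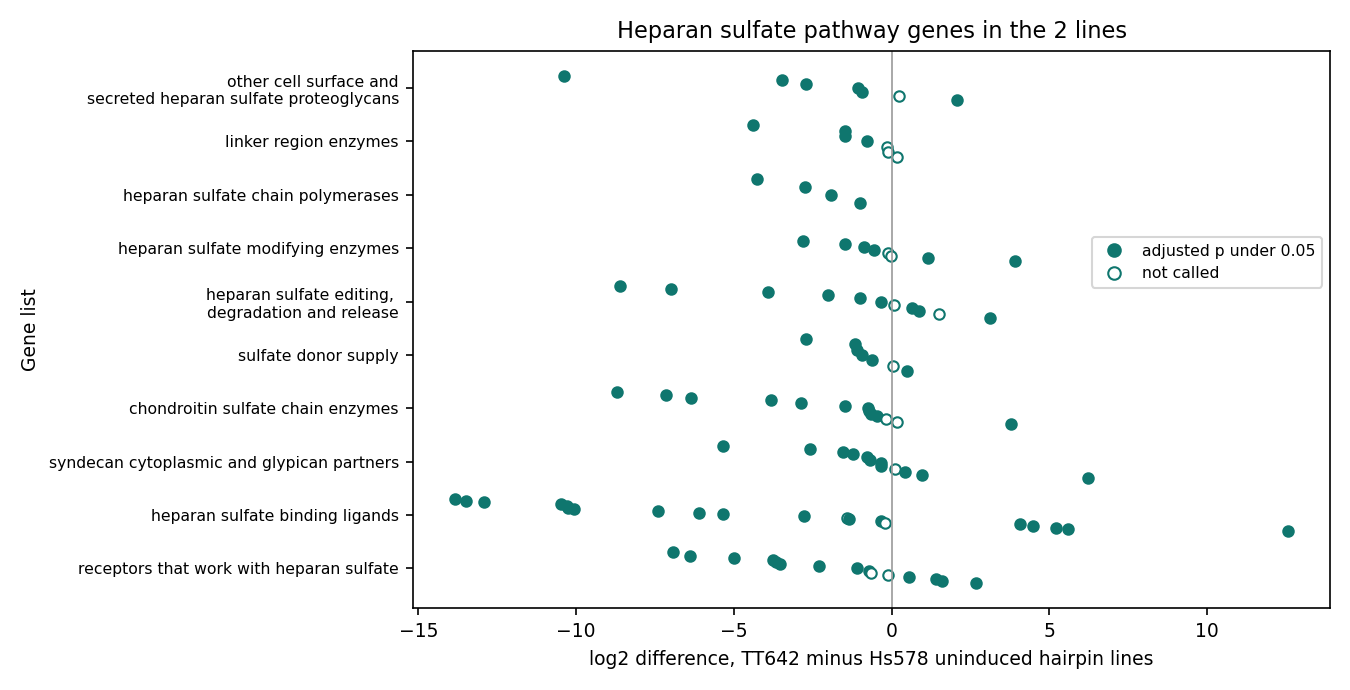
Log2 difference between uninduced hairpin libraries, TT642 minus Hs578, for each tested gene of the 10 lists, filled where edgeR's adjusted p was under 0.05, with genes without a count in one of the 2 groups left out. Most points of the linker, polymerase and sulfate donor lists lie left of 0, higher in Hs578.

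Likeness to other genes was measured as Pearson's r of log2 CPM over 16 libraries, after each gene was centred on its mean in each line, so r shows only how values vary within the lines. The libraries share their parent line and treatment, and r is a description. GPC6 was most like BRAF (r = 0.947), ATXN2 (0.937) and SPG11 (0.929). GPC4 was most like FBXL7 (0.920), SDC1 like PIEZO1 (0.903), GPC1 like ABCA2 (0.906), SDC3 like ZNF836 (0.851), SDC4 like CSPG4 (0.838), SDC2 like UNC119 (0.797) and GPC3 like ZC4H2 (0.728). Over the 12 hairpin libraries alone, the gene most like GPC6 was SSX2IP (0.985) and the one most like SDC2 was PTRF (0.915). Among the members themselves the highest r was that of GPC3 with GPC4, 0.621, and the lowest that of SDC3 with GPC4, -0.413. GPC3 had 3 counts in all over the 8 Hs578 libraries, and SDC2 and SDC4 had 9 and 45 over the 8 TT642 libraries. In those libraries their values are near the floor, which limits every r of GPC3, SDC2 and SDC4.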

How the data were processed

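RNA-seq counts were analysed for 16 libraries in 8 groups. The authors deposited raw read counts per gene symbol, and FPKM values (fragments per kilobase, scaled to library size) for 20111 of the genes. Polyadenylated RNA was used and libraries were made with a stranded kit, per the labels' protocols. Reads were placed on hg19, as the submitters' processing notes say. Not given in the sources used here were aligner, counter, annotation and use of strand.

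The test was that of edgeR 4.0.16 under R 4.3.3 (quasi-likelihood, robust, TMM scaling, the tool's expression filter on the 8 groups), with 1 mean per group, 8 residual degrees of freedom and two-sided p-values adjusted by Benjamini-Hochberg over the 14035 genes left, called under 0.05. Ratios of pairs used a prior count of 2. Intervals are at 95%, and the floor is 3 counts. Alternatives were DESeq2 1.42.0, limma 3.58.1 on log2(FPKM + 1) and log2(FPKM + 0.1), other scaling and filters, each line alone, the derived line as a block, and each hairpin or library left out. No 2 libraries agreed within sampling noise (lowest chi-square per degree of freedom 5.55).

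Same-numbered libraries carry the same shRNA label in a line and were taken as pairs of 1 derived line. For Hs578, r between their deviations from the group means was 0.23, 0.00 and 0.02, and for TT642 it was 0.53, 0.43 and 0.46. The members and gene lists were chosen with earlier results of these data known. The rule names the members, GPC2, GPC5 and PRRX1, up to 3 called genes per direction, list and comparison, and the 3 genes most like each member. IL8 and ACPL2 were matched to CXCL8 and PXYLP1 through RefSeq synonyms (GRCh38.p14).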

Additional observations from a re-analysis of the deposited data

Results flagged for a closer look

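Doxycycline effects that differed between the hairpin lines of Hs578 and TT642 by the edgeR test of the difference are listed here as log2 values, Hs578 minus TT642. Among the members they were SDC4 (-2.08, adjusted p = 0.046), which had 2, 2 and 2 counts without and 10, 12 and 6 counts with doxycycline in TT642, and GPC6 (-1.40, adjusted p = 0.030), which fell in Hs578 and did not pass in TT642 (0.12, adjusted p = 0.94).

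Of the 113 list genes tested, 4 differed, or 3.54% against 5.24% of all genes; DESeq2 called 18 and the fit with the replicate block 21. TGFBR3, or betaglycan, differed by -1.62 (adjusted p = 0.016), with pair ratios of -1.17, -0.76 and -1.03 in Hs578 and 0.51, 0.85 and 0.37 in TT642. TNC differed by 1.89 (adjusted p = 0.027), the epimerase GLCE by -0.65 (adjusted p = 0.046) and the integrin ITGB1 by -0.56 (adjusted p = 0.042). Without the libraries numbered 3 in both lines, which the labels do not tie to 1 hairpin, all 4 calls were lost, with adjusted p from edgeR of 0.14 for TGFBR3, 0.32 for TNC, 0.45 for GLCE and 0.46 for ITGB1.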

How the results depend on the processing

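In TT642 with doxycycline the 4 calls became 74 by DESeq2, 8 with no filter, 13 with limma on log2(FPKM + 1), 46 with the replicate block and 2 with that line alone. The 735 genes whose doxycycline effect differed between the hairpin lines of Hs578 and TT642 became 1404 by DESeq2, 1118 on log2(FPKM + 1) and 1763 with the block. The 57 net calls in Hs578 became 296 by DESeq2, 13 on log2(FPKM + 0.1), 140 with the block and 2 with the line alone, and the net count of 0 in TT642 became 1 on log2(FPKM + 1). Hairpin lines against parental cells gave 1 gene on either FPKM scale in Hs578 in place of 0, and 213 by DESeq2, 78 on log2(FPKM + 0.1) and 54 with the line alone in TT642 in place of 129.

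Leaving out 1 hairpin or library gave 840 to 4768 calls for doxycycline in Hs578 (840 without hairpin 3), 0 to 6 in TT642, 2 to 2082 for the difference (2 without hairpin 3, 2082 without the induced Hs578 hairpin 1 library), 0 to 139 for the Hs578 net effect, 0 to 0 for the TT642 net effect, 10284 to 11051 for the line difference, and 0 to 0 and 74 to 171 for hairpin lines against parental cells in Hs578 and TT642. 

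Directions turned for uncalled members. In Hs578 with doxycycline, limma on log2(FPKM + 1) and log2(FPKM + 0.1) gave -0.0949 and -0.0982 for SDC1, -0.0641 and -0.0692 for SDC3, -0.168 and -0.175 for GPC1, and -0.181 and -0.209 for GPC4, where the median of all genes moved to -0.075 and -0.123. Leaving out 1 hairpin or library gave -0.0473 (without the induced hairpin 1 library) to 0.184 for SDC1, -0.106 (without hairpin 2) to 0.307 for SDC3, and -0.0321 (without hairpin 2) to 0.125 for GPC4. The same in TT642 gave -0.0314 (without the uninduced hairpin 2 library) to 0.166 for SDC1 and -0.0411 (without the induced hairpin 1 library) to 0.481 for GPC3. PRRX1 lost its Hs578 call without hairpin 1 (-1.98, edgeR adjusted p = 0.060). Apart from GPC4 in TT642 and the net effect of GPC6, the replicate block changed no call of a member. The cause of these changes was not tested. Depth limits SDC2 and SDC4 in TT642 and GPC3 in Hs578, whose counts per library are few.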
